A study of Homo sapiens with 6 samples.

Results

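The protein subunits of the respiratory chain and of ATP synthase were examined in ARPE-19 cells with and without a disrupted POLDIP2 gene. Members were the protein-coding genes of GENCODE release 44 whose symbols start with MT-ND, MT-CO, MT-ATP, MT-CYB, NDUFA (but not NDUFAF), NDUFB, NDUFC, NDUFS, NDUFV, UQCR, COX4 to COX8 or ATP5, together with SDHA, SDHB, SDHC, SDHD and CYC1. In all, 104 symbols follow this rule. Of these, ATP5IF1 and NDUFS1 were not analysed here, and 7 had a mean normalised count under 10 over the libraries. That left 95 members of the 37902 genes in the table, 13 of them encoded by mitochondrial DNA and 82 by nuclear DNA. The nuclear members comprised 36 genes of complex I, 4 of complex II, 10 of complex III, 14 of complex IV and 18 of complex V. The mitochondrial members comprised 7 genes of complex I, 1 of complex III, 3 of complex IV and 2 of complex V. NDUFA4 was counted with complex IV, in which its protein is found.

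The cells were ARPE-19, an established line of human retinal pigment epithelium (RPE). WT was the parental line, and the POLDIP2 KO line was ARPE-19 transduced with a lentivirus carrying SpCas9 and an sgRNA against POLDIP2, selected with puromycin and expanded, with no isolation of a clone described. WT cells did not carry the vector, so the loss of POLDIP2 cannot be told apart here from transduction, Cas9 and selection. Both lines were under regular maintenance and were taken at day 3, with 3 biological replicates each, and polyadenylated RNA was sequenced as stranded single-end libraries. Where replicates were grown apart is not stated, so the p values below measure the spread between these libraries. Depth was 31532797 to 45795509 reads recovered per library. The targeted gene followed the labels, with POLDIP2 at 3919, 4827 and 4798 normalised counts in WT and 1063, 1248 and 1143 in POLDIP2 KO. Of 10 RPE and epithelial markers, 8 had a mean of at least 10. KRT8 and KRT18 were abundant, with WT means of 39540 and 32125 normalised counts, and MITF had 3831. RPE65, the isomerase of the visual cycle, was listed at 0 in every library, and TYR did not exceed the filter. None of the 5 leukocyte and endothelial markers (PTPRC, CD14, CD3E, PECAM1 and CDH5) reached a mean of 10. In none of the marker genes tested was the adjusted p value of limma under 0.05 (lowest 0.955). The log2 fold changes of these 8 genes ranged from -0.64 to 0.78. Of the 8, 2 were past 1.5-fold, against 1695 of the 14684 genes tested.

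The respiratory chain passes electrons from NADH through complex I, or from succinate through complex II, to ubiquinone, and from there through complex III and cytochrome c to oxygen at complex IV. Complexes I, III and IV pump protons across the inner mitochondrial membrane, and complex V (ATP synthase) uses their return to make ATP. All of these complexes except complex II are built from subunits of both genomes. The mitochondrial genome is read from a few promoters as long polycistronic RNAs, which are cut at the tRNAs between the genes, so its mRNAs share precursors and are not independent measurements. The RPE relies on oxidative phosphorylation and passes glucose on to the photoreceptors.

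The sequences of a pair of gene junctions are shown because they set which members can be counted apart. On the 16569 bases of the mitochondrial genome, MT-ATP8 and MT-ATP6 share 46 bases, and MT-ND4L and MT-ND4 share 7. Capitals mark the shared bases and lower case the 10 bases on either side, on the plus strand of hg38.
MT-ATP8 and MT-ATP6, chrM:8517-8582: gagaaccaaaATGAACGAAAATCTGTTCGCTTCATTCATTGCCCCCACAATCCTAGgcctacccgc
MT-ND4L and MT-ND4, chrM:10750-10776: acctactccaATGCTAAaactaatcgt
In both, the shared stretch opens with the start codon of the downstream gene, inside the reading frame of the upstream gene. Each pair is carried by a bicistronic mRNA, so MT-ATP8 with MT-ATP6, and MT-ND4L with MT-ND4, are 2 views of the same RNAs. Nuclear copies of mitochondrial DNA are a further source of uncertainty. MTATP6P1 on chromosome 1 (633696 to 634376) matched MT-ATP6 at 98.5% of 681 bases, and its count amounted to 12.5% to 14.0% of the MT-ATP6 count across the libraries. MTND2P28 (chromosome 1, 629640 to 630683) matched MT-ND2 at 98.4% of 1042 bases and amounted to 2.90% to 3.85% of its count. How reads were split between these copies and the mitochondrial genes was decided upstream, and counts of MT-ATP6 and MT-ND2 are uncertain to that extent.

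The mitochondrially encoded mRNAs stood far above the nuclear ones. Per kb of the canonical transcript, the median WT level was 96312 normalised counts for the 13 mitochondrial members and 2346 for the 82 nuclear members, a ratio of 41.0. MT-CO1, the catalytic subunit of complex IV that binds the haem and copper centres, was the highest at 380763 per kb. MT-ND6, the only member read from the light strand, was the lowest of the mitochondrial members at 6991 per kb. Of the nuclear members, 6 lay above MT-ND6 per kb and 0 above the next lowest mitochondrial gene, MT-ND5. Among nuclear members the median level per kb was 1830 for complex I, 2189 for complex II, 2184 for complex III, 2847 for complex IV and 2820 for complex V. The 4 subunits of complex II were close together, from 1805 (SDHA, the flavoprotein that oxidises succinate) to 2464 (SDHB, the iron-sulphur subunit). Complexes I and IV were the most spread, with NDUFS3 at 28.9 and NDUFS5 at 8074 in complex I. In complex IV, COX6B2 was at 15.7 and COX4I1 at 9855. By normalised count rather than per kb, 68 of the 82 nuclear members had a WT mean of 1000 to 10000, 2 lay above (ATP5F1A and ATP5F1B, the subunits that form the catalytic head of ATP synthase) and 4 lay under 100. Levels per kb rest on the annotated canonical transcript, which is as long as 8459 bases for UQCRB and 8356 for NDUFA9 and lowers their values.

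**Figure D1:**
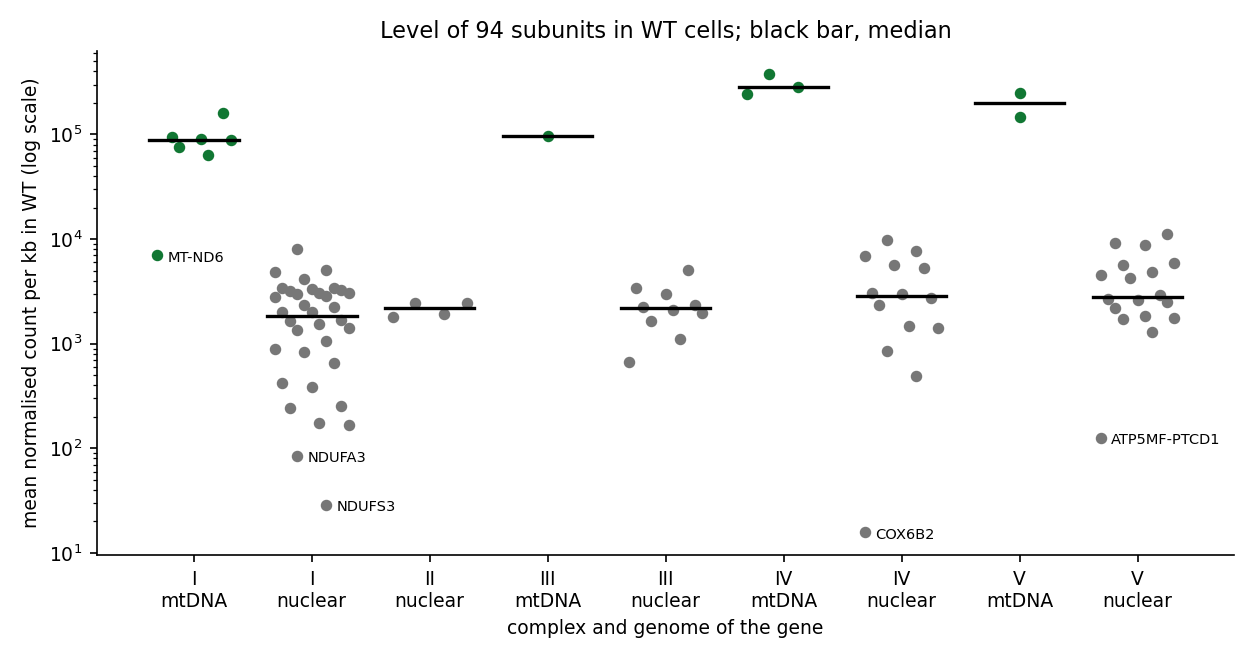
Mean normalised count per kb of canonical transcript in WT (3 libraries, log axis) for 94 of the 95 members, by complex and genome, with mitochondrial genes in green, nuclear genes in grey and the median of each group, over all its members, as a black bar. The mitochondrial genes except MT-ND6 lie above all nuclear genes, and NDUFS3 and COX6B2 lie far below most members of their complexes.

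A few complex I genes carried very few reads. NDUFS3, a core subunit of the peripheral arm, had normalised counts of 33.1, 34.1 and 10.4 in WT and 19.7, 26.0 and 23.8 in POLDIP2 KO. NDUFA3, an accessory subunit, ranged from 11.3 to 189 in WT and from 14.8 to 132 in POLDIP2 KO. The SD among libraries was 51.7% of the mean in WT and 13.9% in POLDIP2 KO for NDUFS3, and 120% and 72.6% for NDUFA3. NDUFB3, an accessory subunit of the membrane arm, was at 102 in WT replicate 1 and between 222 and 263 in the other 5 libraries. NDUFA6, a further accessory subunit, was listed at 0 in every library. The low or 0 values of genes that code for required parts of complex I are given as listed, and whether reads were assigned elsewhere was not tested. The summaries below changed little without NDUFA3, NDUFS3 and NDUFB3, a choice made after their values were seen, with a median log2 fold change of 0.065 for the remaining 92 members.

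For subunits with tissue-specific forms, ARPE-19 cells carried the widely expressed form. COX4I1, COX6A1, COX7B and COX8A held all of the counts of their groups, while COX4I2, COX6A2, COX7B2 and COX8C were listed at 0 in every library. COX6B2, known from testis, made up 0.297% of the COX6B level per kb in WT, against 99.7% for COX6B1. COX7A was the exception, with COX7A2 at 58.0% of the group's level per kb in WT, the supercomplex factor COX7A2L at 31.5%, and the muscle and heart form COX7A1 at 10.5%. This order depends on canonical lengths of 462 bases for COX7A2 and 2282 for COX7A2L. By normalised count COX7A2L led, with a WT mean of 3379 against 1261 for COX7A2. NDUFA4L2, a hypoxia-induced relative of NDUFA4, had 1 read in 1 of the 6 libraries. The 3 genes for the identical subunit c of ATP synthase, ATP5MC1, ATP5MC2 and ATP5MC3, contributed 17.3%, 68.8% and 13.8% per kb in WT and 16.7%, 69.3% and 14.0% in POLDIP2 KO. Their WT means by normalised count were 1429, 5547 and 4568. UQCRHL, an intronless near-copy of UQCRH, was assigned 40.0% of their joint level per kb in WT and 38.0% in POLDIP2 KO. These shares rest on canonical lengths of 276 bases for UQCRHL and 537 for UQCRH. By normalised count the WT means were 940 for UQCRHL and 2744 for UQCRH. Reads of UQCRH and UQCRHL can be hard to tell apart, so this split is uncertain. In none of these groups did the leading form per kb change between the lines.

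The comparison of the lines asked whether loss of POLDIP2, which encodes a protein found in mitochondria and the nucleus, went with other levels of respiratory chain mRNA from either genome. In bulk RNA, a change in the number of mitochondria or mitochondrial genomes per cell and a change in RNA per genome cannot be told apart, nor can fewer cells of a type and less RNA per cell. Limma on log2(normalised count + 1), with Benjamini-Hochberg adjustment over the 14684 genes tested, placed 0 of the 95 members under an adjusted p value of 0.05, against 0.170% of all genes, and the lowest adjusted p value was 0.323 (NDUFB9). At an unadjusted p value under 0.05, 5 members passed (5.26%, against 6.48% of all genes), all of them higher in POLDIP2 KO (against 3.00% of all genes higher) and 0 lower (against 3.47%). Among them were NDUFB9, MT-ND5, MT-ND4L and MT-CYB. The edgeR quasi-likelihood test on the recovered reads gave 0 members an adjusted p value under 0.05 (0.116% of all genes) and 5 an unadjusted p value under 0.05 (6.52% of all genes). DESeq2 gave 1 member, MT-ND5, an adjusted p value under 0.05 (1.89% of all genes). All 3 libraries of POLDIP2 KO lay above all 3 of WT for 13 members and below for 1, together 14.7% of the members against 10.9% of all genes tested. In all 3 same-numbered pairs 35 members were higher (against 17.0% of all genes) and 8 were lower (against 15.7%). Centred within each line, same-numbered libraries correlated at 0.315, 0.137 and 0.129, while WT replicate 3 with POLDIP2 KO replicate 2 reached 0.147. Outside replicate 1, a pairing by replicate number is therefore uncertain. When that number was taken as a block, limma gave 10 members higher and 1 lower at an unadjusted p value under 0.05 (11.6% against 11.1% of all genes), and 0 at an adjusted p value under 0.05 (0.204% of all genes), with a lowest value of 0.0992 for both MT-ND5 and NDUFB9. DESeq2 with the same block gave 9 members an adjusted p value under 0.05 (3.82% of all genes), all higher in POLDIP2 KO, among them MT-ND2, MT-ND4, MT-ND4L, MT-ND5, MT-CYB, MT-ATP6, MT-ATP8 and NDUFB9. Of these 9, 1 was also past 1.5-fold (against 2.67% of all genes). In data simulated on these libraries, limma recovered 16.4% of genes changed 1.5-fold and 28.8% of those changed 2-fold at an adjusted p value under 0.05. The changed genes were drawn from all genes tested, so these shares do not give the recovery for the members. In the same data 15.9% of the calls of DESeq2 without a block were false, against 4.55% for limma. DESeq2 with the block was not simulated.

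By genome, the median log2 fold change was 0.32 for the mitochondrial members and 0.061 for the nuclear members, against -0.00029 for all genes tested. Of the mitochondrial members 11 were higher and 2 lower, and of the nuclear members 57 were higher and 25 lower. Most nuclear members differed little, with 77 of 82 within 1.2-fold. The medians of nuclear members were 0.061 in complex I, 0.10 in complex II, 0.074 in complex III, 0.034 in complex IV and 0.056 in complex V. These complexes differed from each other by less than the spread of their own members. Within the same-numbered pairs, the median log2 ratio was 0.37, 0.41 and 0.13 for mitochondrial members and 0.094, 0.040 and 0.012 for nuclear members, so the excess of the mitochondrial members was smallest in pair 3. The mitochondrial median was 0.17 under quantile normalisation, 0.15 without WT replicate 1 and 0.19 without POLDIP2 KO replicate 2.

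**Figure D2:**
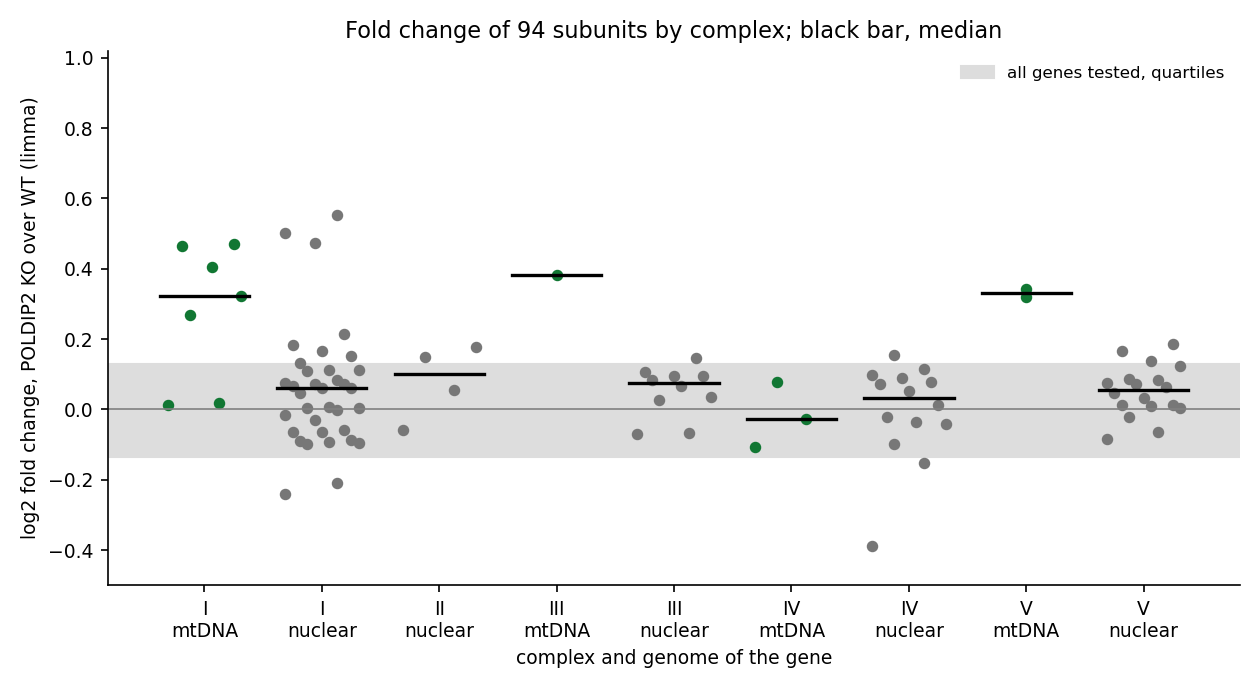
Log2 fold change of POLDIP2 KO over WT (limma, 3 libraries against 3) for 94 of the 95 members, by complex and genome, with mitochondrial genes in green, nuclear genes in grey, medians over all members as black bars and the quartiles of all 14684 genes tested as a grey band. Most nuclear members lie in the band, while the mitochondrial genes of complexes I, III and V lie mostly above it and those of complex IV within it.

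The mitochondrially encoded subunits of complex I are the hydrophobic proteins of its proton-pumping membrane arm. For 3 of the 7 every POLDIP2 KO library lay above every WT library, against 802 of the 14684 genes tested. Of these 3 genes, MT-ND4L and MT-ND4 share an mRNA, as set out above. MT-ND4 (chrM, 10760 to 12137) had 179075, 237205 and 242447 normalised counts in WT and 247509, 353939 and 309491 in POLDIP2 KO. MT-ND4L (10470 to 10766) had 21603, 28674 and 29781 in WT and 31477, 41743 and 37296 in POLDIP2 KO. MT-ND5 (12337 to 14148) had 122343, 111186 and 114778 in WT and 158459, 148209 and 154691 in POLDIP2 KO. Of these genes MT-ND5 had the tightest replicates in each line, while for MT-ND4 and MT-ND4L replicate 1 was the lowest library in both lines. The log2 fold changes were 0.47 ± 0.22 (SE) for MT-ND4, 0.47 ± 0.17 for MT-ND4L and 0.41 ± 0.14 for MT-ND5, with limma adjusted p values of 0.856, 0.669 and 0.599. With the replicate block in limma, the adjusted p values were 0.105, 0.109 and 0.0992. In an exact two-sided permutation test each of the 3 genes gave p = 0.1, the smallest that 3 libraries against 3 can give.

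The other mitochondrial genes of complex I overlapped between the lines. MT-ND2 had 71614, 94520 and 113099 in WT and 93456, 129293 and 123773 in POLDIP2 KO, a log2 fold change of 0.32 ± 0.22 with POLDIP2 KO higher in 3 of 3 pairs. MT-ND3 had 18920, 28953 and 31181 in WT and 26602, 35121 and 32050 in POLDIP2 KO, a log2 fold change of 0.27 ± 0.21, also with 3 of 3 pairs higher. For MT-ND1 and MT-ND6 the lines were close, and pair 3 ran against the other pairs. MT-ND1 had 79485, 93382 and 100319 in WT and 87245, 99292 and 89069 in POLDIP2 KO (log2 fold change 0.017 ± 0.15), a sign that turned under quantile normalisation and under scaling to the nuclear total. MT-ND6 had 2896, 3078 and 5037 in WT and 3331, 3507 and 3949 in POLDIP2 KO (0.013 ± 0.22), and its sign turned under edgeR, DESeq2 and scaling to the nuclear total.

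In complex III, MT-CYB, which encodes cytochrome b and its quinone sites, was higher in POLDIP2 KO without overlap. Its normalised counts were 107023, 116879 and 105775 in WT and 146920, 157368 and 126945 in POLDIP2 KO, which is 0.38 ± 0.15 on the log2 scale (adjusted p = 0.741 by limma, and 0.137 with the replicate block). The 10 nuclear members of complex III ranged from -0.071 (UQCRHL) and -0.066 (UQCR10) to 0.11 (UQCRB) and 0.15 (UQCR11), and 0 of them had lines that did not overlap. CYC1, cytochrome c1, was at 2007, 2400 and 2641 in WT and 2422, 2637 and 2425 in POLDIP2 KO, and UQCRFS1, the Rieske iron-sulphur protein, had a log2 fold change of 0.027. Cytochrome b was the only subunit of complex III whose lines did not overlap, and all other subunits of the complex were within 1.2-fold. Of all genes tested, 10.9% did not overlap, so this count is near the background share.

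The mitochondrial genes of complex IV did not share this pattern. MT-CO1 had 510031, 679693 and 571687 normalised counts in WT and 502624, 665308 and 561714 in POLDIP2 KO, a log2 fold change of -0.026 ± 0.24, with the pairs at -0.021, -0.031 and -0.025. MT-CO2, the subunit that takes electrons from cytochrome c, had 162936, 219110 and 197391 in WT and 173473, 233774 and 204236 in POLDIP2 KO (0.078 ± 0.20), and its sign turned under quantile normalisation. MT-CO3 had 167801, 212878 and 196343 in WT and 157834, 202684 and 175792 in POLDIP2 KO (-0.11 ± 0.18). For each of these genes the range over the replicates of a line was wider than any difference within a pair, and replicate 1 was the lowest and replicate 2 the highest in both lines. MT-CO3 was lower in POLDIP2 KO in 3 of 3 pairs, as was MT-CO1. The nuclear members of complex IV ranged from -0.39 ± 0.40 (COX6B2, at 13.9 to 29.2 normalised counts) and -0.15 (COX7A2) to 0.12 (NDUFA4) and 0.15 (COX7B). COX4I1, the regulatory subunit 4, had 7207, 7789 and 7563 in WT and 8319, 7813 and 7996 in POLDIP2 KO, without overlap but at a log2 fold change of only 0.097 ± 0.090. COX5A also did not overlap, at a log2 fold change of 0.077. These genes were 14.3% of the 14 nuclear members of complex IV, against 10.9% without overlap among all genes tested.

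**Figure D3:**
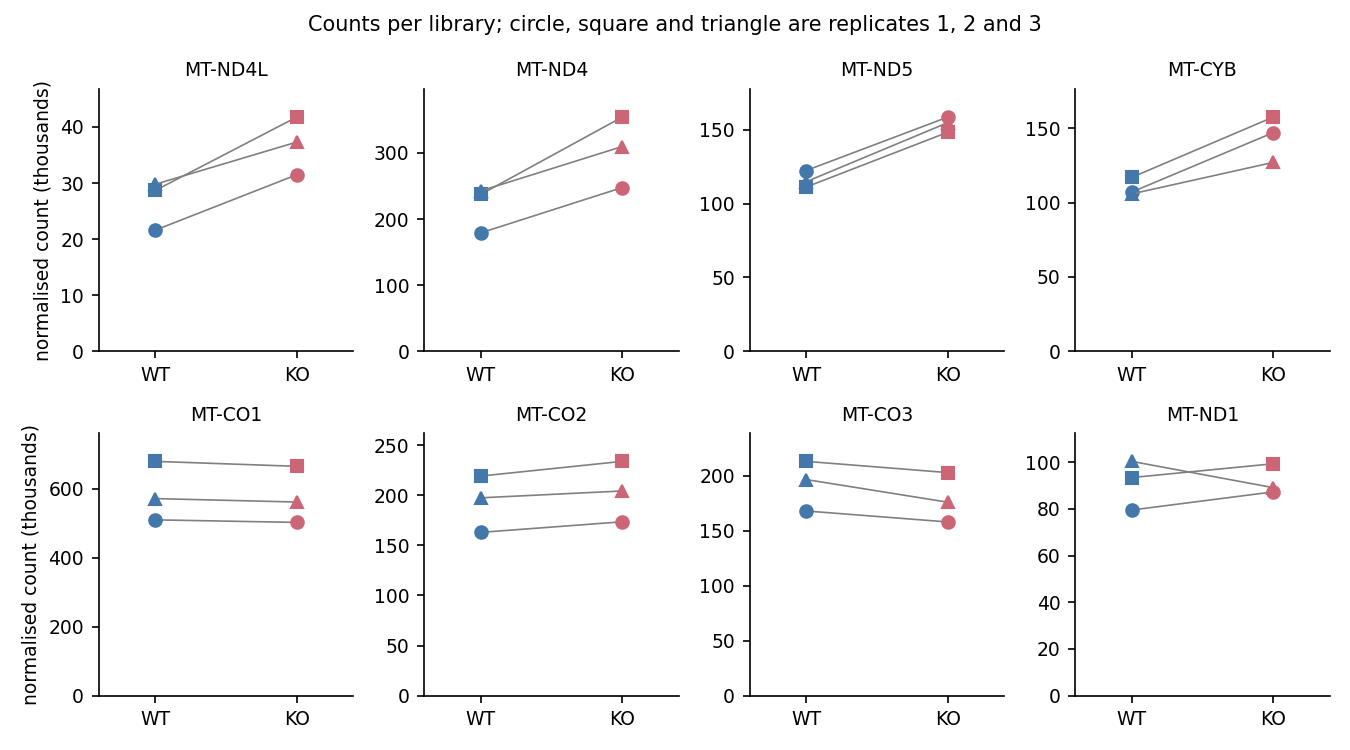
Normalised counts (axis divided by 1000) of 8 mitochondrially encoded genes in each WT (blue) and POLDIP2 KO (red) library, with lines that join same-numbered replicates. In MT-ND4L, MT-ND4, MT-ND5 and MT-CYB every POLDIP2 KO library lies above every WT library, whereas in MT-CO1, MT-CO2, MT-CO3 and MT-ND1 the lines overlap.

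In complex V, the mitochondrial genes for subunits of the proton channel were higher in POLDIP2 KO in 3 of 3 pairs, with overlap. MT-ATP6 had 137110, 181098 and 193000 in WT and 164288, 251727 and 224935 in POLDIP2 KO, 0.32 ± 0.23 on the log2 scale (adjusted p = 1.00 by limma, and 0.227 with the replicate block). MT-ATP8 had 23163, 33395 and 35145 in WT and 30467, 44926 and 40540 in POLDIP2 KO, a log2 fold change of 0.34 ± 0.22. As set out above, these genes share an mRNA, and the copy MTATP6P1 moved with them, from a WT mean of 22995 ± 5197 (SD, n = 3) to 28506 ± 5552 in POLDIP2 KO. The nuclear members of complex V ranged from -0.083 (ATP5F1D) and -0.064 (ATP5MG) to 0.17 (ATP5F1B) and 0.19 (ATP5MK), and all 18 were within 1.2-fold. ATP5F1B, the catalytic beta subunit, had 15949, 19341 and 23840 in WT and 18656, 22765 and 24499 in POLDIP2 KO. ATP5MK, a small membrane subunit, had 1702, 2058 and 2056 in WT and 2107, 2301 and 2190 in POLDIP2 KO, without overlap (limma adjusted p = 0.981). Lines without overlap were found for 11.1% of the 18 nuclear members, near the 10.9% of all genes tested.

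Set in their order along the genome, the heavy-strand genes with the highest ratios were the last 4, MT-ND4L, MT-ND4, MT-ND5 and MT-CYB. Their median log2 fold change was 0.44, and each of the 4 was free of overlap between the lines. They were grouped after their ratios were seen, so neither value is a test of the group. Over all 13 mitochondrial members, 30.8% were free of overlap, against 10.9% of all genes tested. Across the 12 heavy-strand genes, Spearman's rho of log2 fold change with start position was 0.64 and Pearson's r 0.55. Spearman's rho was 0.53, 0.41 and 0.73 in pairs 1, 2 and 3. Ratios of a higher-numbered over a lower-numbered replicate of the same line gave -0.31 to -0.13. The order of those ratios is arbitrary, so their sign carries no meaning. They reuse the same 3 libraries per line and are not independent of each other. They therefore do not set the size of rho to be met without a difference between the lines. For the log2 fold change, rho with gene length was 0, and with mean count -0.25, and neither was tested as a cause. These values describe 12 genes that share precursors, libraries and, in 2 cases, an mRNA, and the order is not even, since MT-ND2 near the start had a higher ratio than MT-CO3 further on. The contrast was also read in ratios within a library, which do not depend on the scaling between libraries. MT-ND4 over MT-CO1 was 0.351, 0.349 and 0.424 in WT and 0.492, 0.532 and 0.551 in POLDIP2 KO, or 0.375 ± 0.043 against 0.525 ± 0.030 (SD, n = 3 each). MT-ND4 over MT-CO3 was 1.07, 1.11 and 1.23 in WT and 1.57, 1.75 and 1.76 in POLDIP2 KO. Neither ratio overlapped between the lines, nor did MT-CYB over MT-CO1 (0.189 ± 0.019 against 0.252 ± 0.036) or MT-ATP6 over MT-CO3 (0.884 ± 0.088 against 1.19 ± 0.13). MT-ND5 over MT-CO1 did overlap, at 0.240, 0.164 and 0.201 in WT and 0.315, 0.223 and 0.275 in POLDIP2 KO, although the counts of MT-ND5 alone did not. MT-ND1 over MT-CO1 overlapped as well, at 0.156 ± 0.019 in WT and 0.160 ± 0.012 in POLDIP2 KO. These ratios were chosen after the counts were seen.

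**Figure D4:**
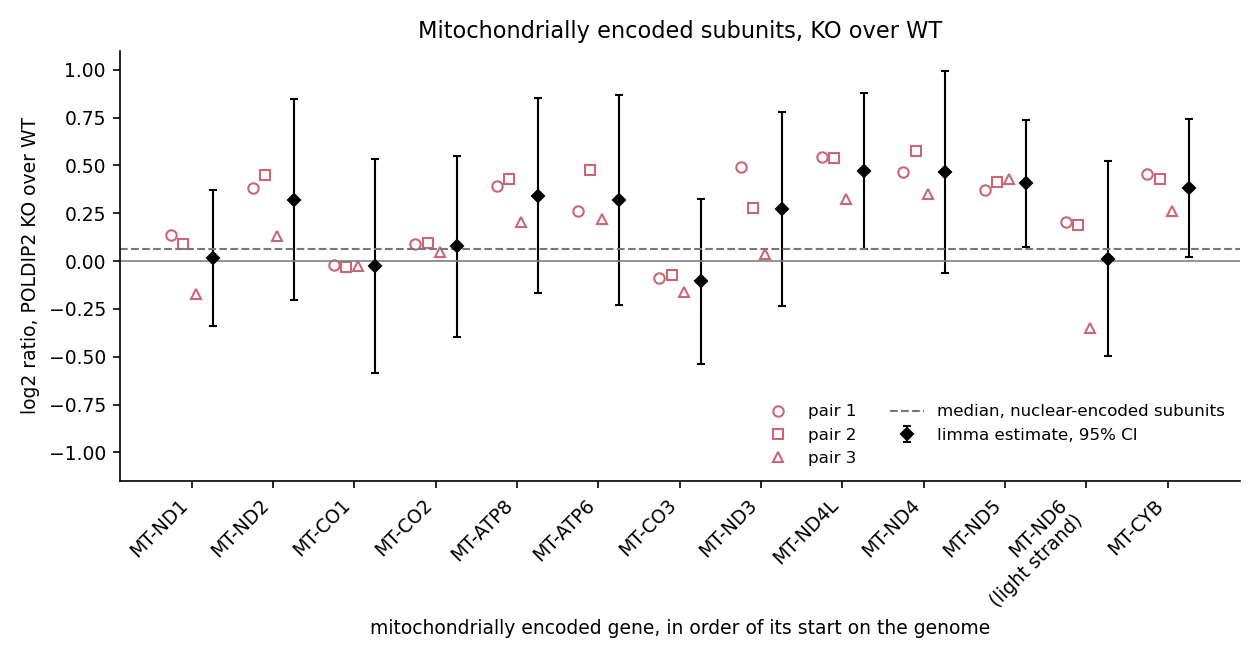
Log2 ratio of POLDIP2 KO over WT for the 13 mitochondrially encoded genes in the order of their starts, in each same-numbered pair (open red symbols) and as the limma estimate with its 95% confidence interval (black), with the median of the nuclear members at 0.061 as a dashed line. MT-ND4L to MT-CYB, leaving out MT-ND6 of the light strand, lie between 0.38 and 0.47, and MT-CO1 and MT-CO3 lie at or below 0.

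As a share of the counts of the 13 genes, a measure chosen after the counts were seen, 2 genes lay above and 3 below the WT range in all POLDIP2 KO libraries. MT-CO1 took 31.5% ± 1.9 (SD, n = 3) of the mitochondrial counts in WT and 27.5% ± 0.58 in POLDIP2 KO. MT-CO2 took 10.4% ± 0.33 and 9.73% ± 0.19, and MT-CO3 took 10.3% ± 0.18 and 8.55% ± 0.11. The complex IV genes therefore all made up a smaller part of the mitochondrial mRNA in POLDIP2 KO. MT-ND4 took 11.8% ± 0.69 in WT and 14.5% ± 0.77 in POLDIP2 KO, and MT-ND4L 1.43% ± 0.098 and 1.76% ± 0.032. Shares sum to a whole, so some must be lower where others are higher.

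The 13 genes together took 4.28%, 5.57% and 5.22% of all normalised counts in WT and 4.70%, 6.35% and 5.48% in POLDIP2 KO, or 5.02% ± 0.67 against 5.51% ± 0.82. This sum overlapped between the lines and was higher in POLDIP2 KO in 3 of 3 pairs, with log2 ratios of the summed counts of 0.19, 0.21 and 0.11. The log2 ratio of the mean sums was 0.17. It lay at 0.073 without WT replicate 1 and 0.071 without POLDIP2 KO replicate 2, and at 0.24 without WT replicate 2 and 0.26 without POLDIP2 KO replicate 1, so its size rests on single libraries. The 82 nuclear members took 0.600% ± 0.032 of the counts in WT and 0.615% ± 0.028 in POLDIP2 KO, and the mitochondrial sum was 8.36 ± 0.80 times the nuclear sum in WT and 8.94 ± 1.1 times in POLDIP2 KO. Replicate 1 had the lowest mitochondrial and the lowest nuclear share in both lines. RNAs that mostly lack long poly(A) tails were read as a measure of how strictly tails were selected, and of 13 listed 5 were used from the table, all of them histone mRNAs, and 3 had a mean of at least 10. H1-2, H2AC6 and H2BC4 had log2 fold changes of -0.045, 0.18 and -0.11, and the part of tail selection in the result was not tested.

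**Figure D5:**
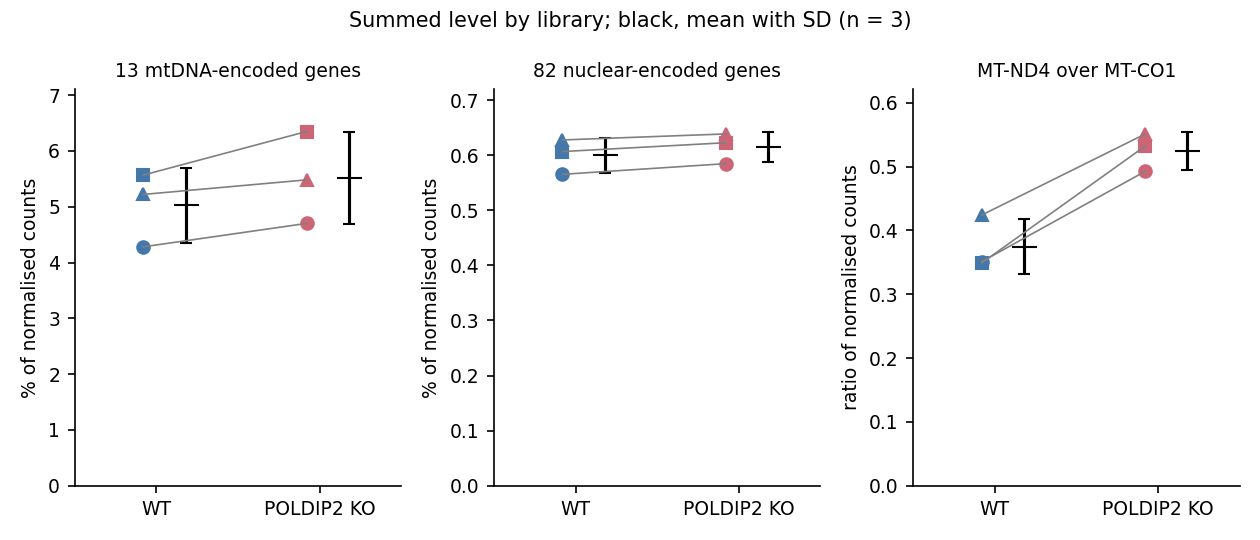
Share of all normalised counts taken by the 13 mitochondrial and the 82 nuclear members, and the ratio of MT-ND4 to MT-CO1, in each library (circle, square and triangle for replicates 1, 2 and 3), with the mean and SD in black. The sums overlap between the lines and run upward in each pair, and the ratio does not overlap.

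Of the nuclear members of complex I, NDUFB9 had the smallest p value. NDUFB9, an accessory subunit of the membrane arm (chromosome 8, 124539101 to 124580648), had 2033, 2311 and 2755 normalised counts in WT and 3109, 3516 and 3733 in POLDIP2 KO. All POLDIP2 KO libraries lay above all WT libraries, and the log2 fold change was 0.55 ± 0.14 (adjusted p = 0.323 by limma, and 0.0992 with the replicate block). Its neighbours differed in the same direction, with 24 of the 28 other tested genes within 5 Mb higher in POLDIP2 KO at a median log2 fold change of 0.43, against 0.017 for the 448 tested genes of chromosome 8. The other members on that chromosome did not share the size of the difference, with UQCRB at 0.11, COX6C at -0.043 and CYC1 at 0.095. The lowest complex I members were NDUFB8, at 2155, 2104 and 2542 in WT and 1872, 1734 and 2153 in POLDIP2 KO (-0.24 ± 0.13, lower in 3 of 3 pairs), and the readthrough gene NDUFC2-KCTD14 (-0.21 ± 0.34). NDUFB8, a membrane-arm subunit, was the member that passed the unadjusted threshold in the lower direction with the replicate block, where its limma adjusted p value was 0.387. NDUFV1, the subunit that oxidises NADH, was the only member with all POLDIP2 KO libraries below all WT libraries, at 3092, 3016 and 3204 against 2886, 2962 and 2843, a log2 fold change of -0.099. NDUFS4, NDUFS5 and NDUFB4 did not overlap in the upper direction, with log2 fold changes of 0.21, 0.18 and 0.13. Over both directions, 16.7% of the 36 nuclear members of complex I did not overlap, against 10.9% of all genes tested.

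Complex II, which has no mitochondrially encoded subunit and also serves the citric acid cycle, differed little. SDHA had 4927, 4569 and 5090 in WT and 5008, 5755 and 5754 in POLDIP2 KO, 0.18 ± 0.10 on the log2 scale (adjusted p = 0.959 by limma). SDHB had 2425, 2431 and 2648 in WT and 2303, 2410 and 2494 in POLDIP2 KO (-0.058 ± 0.095). The membrane anchors SDHC and SDHD had log2 fold changes of 0.054 ± 0.11 and 0.15 ± 0.10. All 4 overlapped between the lines. The 14 citric acid cycle genes tested, which deliver NADH and succinate to the chain, had a median log2 fold change of 0.040, with 0 at an adjusted or an unadjusted limma p value under 0.05.

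The genes that build and supply the complexes also gave 0 adjusted calls. Of 57 assembly factors tested, 34 were higher and 23 lower in POLDIP2 KO, with a median log2 fold change of 0.024 and 0 at an unadjusted limma p value under 0.05, against 6.48% of all genes. By complex, their medians were -0.0070 for complex I (18 genes), 0.085 for complex II (4), 0.024 for complex III (9), 0.032 for complex IV (22) and 0.057 for complex V (4). Past 1.5-fold were NDUFAF1, an assembly factor of complex I, and SCO2, which brings copper to complex IV. Neither gives a reliable fold change, since NDUFAF1 was listed at 0 in WT replicate 1 and at 66.5 to 122 in the other 5 libraries, and SCO2 was listed at 0 in 2 WT libraries and reached 46.7 in 1 POLDIP2 KO library. Of 28 genes that copy, transcribe, process and translate mitochondrial DNA, 20 were higher and 8 lower, with a median of 0.028 and 0 at an unadjusted p value under 0.05. Of the 9 regulators of mitochondrial biogenesis tested, 0 passed, among them PPARGC1A (0.27 ± 0.39), NRF1 (-0.0089 ± 0.18) and GABPA (0.15 ± 0.11). Among 18 genes for ubiquinone synthesis and other electron carriers, the median was 0.0066. An unadjusted limma p value under 0.05 was reached by 2 of them (11.1%, against 6.48% of all genes), DHODH and SQOR. DHODH, the pyrimidine synthesis enzyme of the inner membrane, had 353, 260 and 283 normalised counts in WT and 376, 406 and 439 in POLDIP2 KO (0.46 ± 0.17 on the log2 scale, limma adjusted p = 0.687). SQOR, which oxidises hydrogen sulphide, had 672, 780 and 736 in WT and 850, 977 and 921 in POLDIP2 KO (0.33 ± 0.12, limma adjusted p = 0.677). Neither gene overlapped between the lines, and these 2 of 18 make up 11.1%, near the 10.9% of all genes tested.

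Promoters of the nuclear members were read for motifs of factors known to act at respiratory genes, in the window from 250 bases before to 50 after the start in RefSeq (GRCh38.p14), which matched 65 of the 82 nuclear members. Letters were searched on both strands. The NRF1 core GCATGCG was found in 13 of the 65 (20%) against 4.74% of all 27305 promoters in the table. The ETS core CCGGAAG, which GABPA binds, was found in 20 (30.8% against 12.2%), and the YY1 core ATGGCGG in 19 (29.2% against 6.66%). The TATA box TATAAA was found in 6 (9.23% against 14.0%). Either the NRF1 or the ETS letters were in 27 members. The windows of 3 members that hold the NRF1 letters are shown as examples of this class of promoter. Among members with the letters upstream of the start on the gene's strand, outside chromosomes 8 and 18, they had the highest WT counts. Each is written 5′ to 3′ in the direction of the gene with the motif in capitals.
ATP5MC2, chr12:53676104-53676133, minus strand: cccgggtcacGCATGCGctgagccttcctt
ATP5F1C, chr10:7788147-7788176, plus strand: gagcttcggcGCATGCGcgctgaggcctgc
COX6A1, chr12:120437885-120437914, plus strand: gagggcacacGCATGCGcacgaaggaaacg
The log2 fold changes of these genes were 0.065, 0.087 and 0.054. Members with the NRF1 letters had a median log2 fold change of 0.065 (13 genes) and those without 0.041 (52 genes), and for ETS the medians were 0.070 and 0.027, for YY1 0.0042 and 0.062, and for TATA 0.0070 and 0.054. All of these medians were small beside the spread between members. A match of letters is not a site of binding.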

How the data were processed

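Per the study's methods and processing notes, the authors ran Salmon 1.8 for transcript abundance, tximport for gene counts on GRCh38 and DESeq2 1.34.0 for size factors, by which counts were divided. The signal they deposited is this normalised count. The annotation release is not given in the sources used here, so identifiers were named through GENCODE release 44, in which 34152 of 37902 matched, while 3750 did not and are not named. SOD2, meant as a second check of the labels, is not reported for this reason. All columns were used, so 0 were left out. Every value was a whole multiple of the step of 1 read in its library (100%, tolerance 0.001), although for the libraries WT 2 and POLDIP2 KO 3 a read was worth nearly 1, where whole values are uninformative. Standard errors and confidence intervals are those of limma and measure the spread between libraries.

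POLDIP2 KO was compared with WT by limma 3.58.1 (lmFit, then eBayes with trend) under R 4.3.3, two-sided, on the log2 of the normalised count with 1 added. Genes needed a mean of 10 or more, which 14684 had. The prior had 3.02 degrees of freedom, p values were adjusted by Benjamini-Hochberg, and calls needed an adjusted value under 0.05 with over 1.5-fold. The added 1 understates the fold changes of genes with few reads. The edgeR 4.0.16 and DESeq2 1.42.0 tests on recovered reads were alternatives, as were other pseudocounts, filters, scalings and variance models, and the omission of each library. Values centred within each line correlated at 0.315, 0.137 and 0.129 between same-numbered libraries, all over 0.1, and at -0.259 to 0.147 otherwise, so the numbers were used as a block in an alternative. On simulated data (14507 genes, 196 changed), limma recovered 42.9% with 4.55% false among 88 calls, edgeR 44.4% and DESeq2 48.5% with 15.9% false among 113. Levels per kb used the length of the GENCODE canonical transcript. Python 3.11.15 (numpy 2.4.6, pandas 2.3.3, matplotlib 3.10.9) was used for tables and plots.

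Members and gene lists were chosen with earlier results of these data known. Genes were named by rule: the 13 mitochondrial genes, SDHA to SDHD, paralogue groups, the 2 highest and 2 lowest nuclear members of complexes I, III, IV and V, and members or listed genes at an unadjusted p value under 0.05 (listed genes also past 1.5-fold). Other genes were named after their values were seen. Of the members, 1 is counted but not reported or drawn here.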

Additional observations from a re-analysis of the deposited data

How the results depend on the processing

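Under the 14 alternatives with all 6 libraries, the median log2 fold change ranged from 0.17 (quantile normalisation) to 0.32 for mitochondrial and from 0.031 to 0.065 for nuclear members. Leaving out each library in turn gave 0.15 (without WT replicate 1) to 0.40 for mitochondrial and 0.0061 (without WT replicate 1) to 0.087 for nuclear members, and for the nuclear members of complexes II, III and V 0.060 to 0.15, -0.0081 to 0.12 and 0.0067 to 0.10. The log2 ratio of the summed mitochondrial counts was 0.14 scaled to the nuclear total and 0.071 to 0.26 without 1 library, lowest without POLDIP2 KO replicate 2 and highest without POLDIP2 KO replicate 1. That scaling also gave medians of 0.071 in complex II and 0.026 in complex V. Members higher at an unadjusted p value under 0.05 numbered 2 under quantile normalisation, 3 scaled to the nuclear total, and 1 to 4 without 1 library, the fewest without POLDIP2 KO replicate 3; members lower numbered 0 to 1. With the replicate block, 10 were higher and 1 lower in limma, 9 and 1 in edgeR, and 10 and 1 in DESeq2. Members at an adjusted p value under 0.05 numbered 1 in DESeq2 and 9 in DESeq2 with the block, 1 of them also past 1.5-fold, and 0 under every other alternative. The block changed no other adjusted call. In all libraries, 4 of 46 named genes changed sign under some setting (ATP5MC1, MT-CO2, MT-ND1 and MT-ND6), and 16 did when 1 library was left out, none of them called. Depth limits the values of NDUFS3, NDUFA3 and COX6B2, whose lowest libraries held 10, 12 and 14 reads.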
